A study of Bos grunniens with 6 samples.

Results

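*STAT3* (ENSBGRG00000010257) and *BCL6* (ENSBGRG00000001201) are 2 of the 20953 genes in the expression table of yak testis. They were taken by gene ID, with every m6A peak and every scored adenosine listed for them. m6A is the methylation of adenosine at its N6 position in RNA. It was mapped by immunoprecipitating fragmented mRNA with an m6A antibody (IP) and sequencing it beside the unprecipitated mRNA (input). Testicular parenchyma came from *Bos grunniens* males of 2 ages, with 3 animals per group: juvenile yaks of 6 months, before sexual maturity (Y6M), and sexually mature yaks of 30 months (Y30M). The labels name no treatment or genetic change, and age is the factor that separates the groups.

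STAT3 is a transcription factor that waits in the cytoplasm until a Janus kinase at an activated cytokine or growth factor receptor phosphorylates it. It then pairs with another STAT protein and enters the nucleus to switch on its targets, and in the testis it is known for a part in the differentiation of spermatogonia. BCL6 is a zinc finger repressor of the BTB family, best known as the master regulator of germinal centre B cells, and male mice without it lose spermatocytes. The genes are linked in lymphocytes, where cytokines that act through STAT3 induce *BCL6* and where both proteins can bind similar DNA elements. Expression was measured here as mRNA, so neither the phosphorylation of STAT3 nor the amount of either protein was read.

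Expression comes from the 6 input libraries in FPKM, the read fragments scaled to transcript length and to the number mapped in a library. The study lists read statistics separately, but read totals were not used here, and FPKM is already divided by them. The smallest steps between low FPKM values put the depth of the other libraries at 0.752 to 1.07 times that of Y30M replicate 1, with Y6M replicate 3 the shallowest. A principal component with 87.3% of the variance separated the ages, and a second with 7.38% set replicate 3 of both groups apart from the other 4 libraries. The changes of *STAT3* and *BCL6* kept their direction and passed the threshold given with them without Y6M replicate 3 and without Y30M replicate 3 in turn.

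The transcripts of the pair moved in opposite directions between the ages. *STAT3* was 3.11-fold lower in mature testis and *BCL6* was 3.29-fold higher, as ratios of mean FPKM. In each juvenile library *STAT3* was the more abundant of the pair per unit length, and in each mature library *BCL6* was.

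*STAT3* was measured at 13.4, 11.2 and 17.5 FPKM in Y6M replicates 1, 2 and 3. In Y30M it stood at 5.94, 2.66 and 4.93 FPKM in the same order. All 3 juvenile libraries lay above all 3 mature ones, and the lowest juvenile level was 1.88 times the highest mature level. Mean levels were 14.0 ± 3.20 FPKM at 6 months and 4.51 ± 1.68 FPKM at 30 months (SD over 3 animals each). On the log2(FPKM + 1) scale *STAT3* fell by 1.48 (standard error 0.34, 95% confidence interval -2.27 to -0.68, Benjamini-Hochberg adjusted p = 0.0102 from limma over the 19477 genes tested). It thus passed the threshold for a call, which asked for an unadjusted limma p no larger than 0.05 and a change of 1.5-fold or more.

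*BCL6* was measured at 3.44, 5.81 and 6.84 FPKM in Y6M replicates 1, 2 and 3. In Y30M it stood at 13.8, 23.7 and 15.5 FPKM. Every mature library was above every juvenile one, and the lowest mature level was 2.01 times the highest juvenile level. Mean levels were 5.36 ± 1.74 and 17.6 ± 5.32 FPKM (SD over 3 animals each). *BCL6* rose by 1.55 on the log2(FPKM + 1) scale (standard error 0.33, 95% confidence interval 0.77 to 2.34, adjusted p = 0.00758 from limma).

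**Figure D1:**
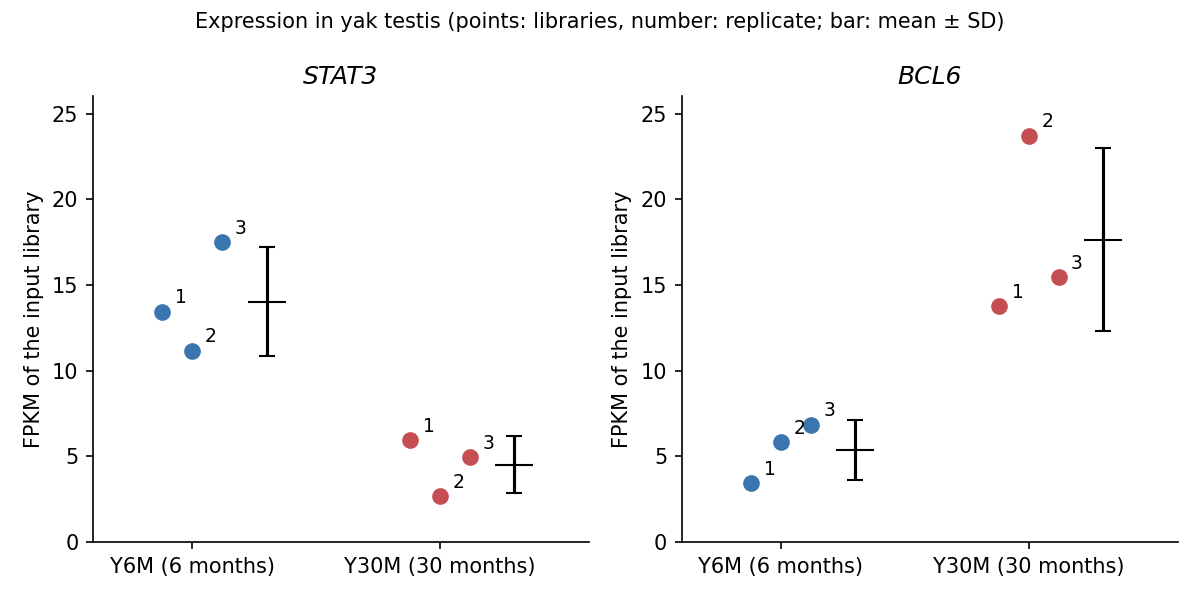
FPKM (y axis) of *STAT3* and *BCL6* in the 6 input libraries, with the replicate number beside each point and the mean ± SD of each group as a black bar. *STAT3* spans 11.2 to 17.5 FPKM in Y6M and 2.66 to 5.94 in Y30M, and *BCL6* spans 3.44 to 6.84 and 13.8 to 23.7, so the groups do not overlap for either gene.

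Such changes were common in this comparison. Across all genes tested, 46.6% were called in either direction, 27.6% as higher in Y30M and 19.0% as lower. The groups did not overlap for 32.2% of genes in the direction of *BCL6* and for 21.9% in the direction of *STAT3*. In absolute size, 25.2% of all genes tested changed more than *STAT3* and 23.8% more than *BCL6*. In signed order, 8.85% of genes had a lower log2 fold change than *STAT3* and 84.4% a lower one than *BCL6*. An exact two-sided permutation test on either gene alone gave p = 0.1, the smallest value that 3 libraries against 3 allow.

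**Figure D2:**
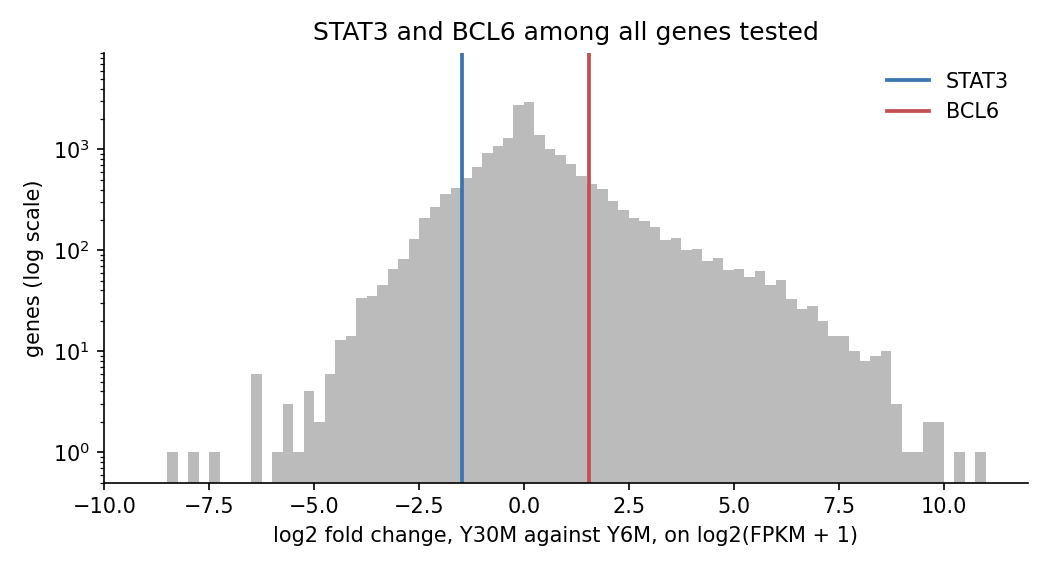
Number of genes (y axis, log scale) in bins of log2 fold change of Y30M against Y6M (x axis) for the 19477 genes tested, with lines at *STAT3* (-1.48) and *BCL6* (1.55). Both lines stand on the shoulders of the distribution, with longer tails beyond them on either side.

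Relative to its mean, *STAT3* spread more widely among the animals after maturity, although its SD was smaller (1.68 FPKM in Y30M, 3.20 in Y6M). The coefficient of variation of its FPKM was 22.8% before and 37.3% after maturity, against 32.5% and 30.1% for *BCL6*. Y30M replicate 2 held both the lowest *STAT3* and the highest *BCL6* level of the 6 libraries. In Y6M the extremes fell on different animals, with *STAT3* highest in replicate 3 and *BCL6* lowest in replicate 1.

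The groups share replicate numbers, so the change was also read number by number. *STAT3* was lower in Y30M for all 3 numbers, by log2 differences of -1.06, -1.73 and -1.64 for replicates 1, 2 and 3. *BCL6* was higher for all 3, with log2 differences of 1.73, 1.86 and 1.07. The groups did not overlap for either gene, so every pairing of their libraries gives these directions, which are no separate result. What a number marks is not stated. By these numbers the smallest change of *STAT3* was in replicate 1 and that of *BCL6* in replicate 3.

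The balance within each library compares the genes with each other and largely cancels factors common to a library. In Y6M replicates 1, 2 and 3 *STAT3* was 3.91, 1.92 and 2.56 times *BCL6* in FPKM. In Y30M *BCL6* was 2.32, 8.91 and 3.14 times *STAT3*. The difference log2(*BCL6* + 1) minus log2(*STAT3* + 1) took values of -1.70, -0.84 and -1.24 in the juvenile libraries and of 1.09, 2.75 and 1.47 in the mature ones. It was below 0 in all 3 juvenile libraries and above 0 in all 3 mature ones. The group means were -1.26 ± 0.43 and 1.77 ± 0.87 (SD, n = 3 each), a shift of 3.03 log2 units (exact two-sided permutation p = 0.1, the smallest possible here). Neither gene overlapped between the ages, and they moved in opposite directions. The separation of the groups and the outcome of this test therefore follow from the changes given above and are no separate result.

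**Figure D3:**
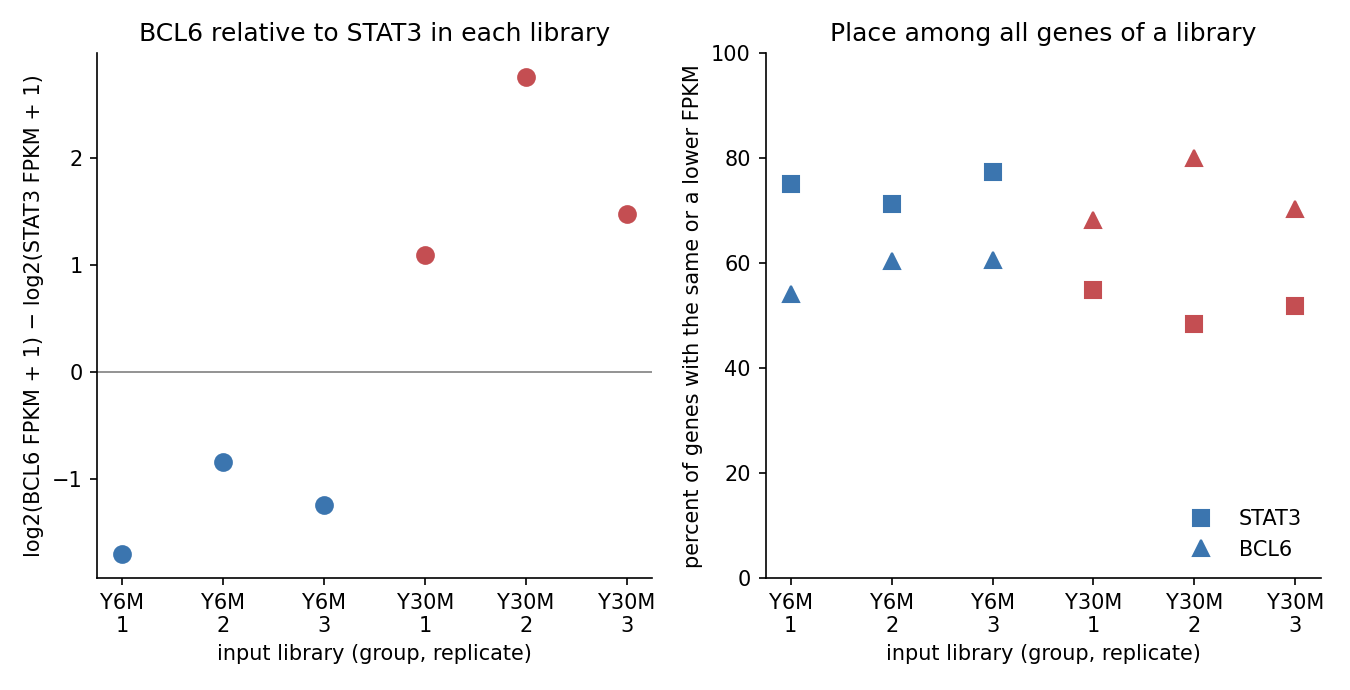
Left, log2(*BCL6* FPKM + 1) minus log2(*STAT3* FPKM + 1) in each input library, with a line at 0 where the genes are equal. Right, the percent of all genes with the same or a lower FPKM than *STAT3* (squares) or *BCL6* (triangles) in that library. Blue is Y6M and red is Y30M, and the symbols change places between the ages.

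Rank within a library gives the same order without any scaling between libraries. *STAT3* had 74.99%, 71.2% and 77.3% of genes at or below its level in Y6M, and 54.8%, 48.4% and 51.8% in Y30M. *BCL6* had 54.0%, 60.5% and 60.6% of genes at or below it in Y6M, and 68.2%, 80.1% and 70.3% in Y30M. In mature testis *STAT3* stood near the middle of all genes, a level close to where *BCL6* had stood in juveniles.

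Markers of testis cell types differed between the ages too. FPKM is relative to all RNA of a library. In whole tissue, fewer cells of a type, less RNA per cell and a smaller share beside other cells cannot be told apart. Of 48 fixed markers of testis cell types, 8 could be paired with an ID, of which 2 were called higher in Y30M, 5 lower and 1 not called, beside 27.6% and 19.0% of all genes tested called higher and lower. The pairing used tables in which the study listed mostly genes or peaks that changed in these samples, so these counts are not independent evidence of a direction. The summed Sertoli markers *SOX9* and *FSHR* ranged from 65.7 to 93.2 FPKM in Y6M and from 19.5 to 35.4 in Y30M. *LHCGR*, the luteinizing hormone receptor of Leydig cells, ranged from 34.4 to 67.3 and from 1.44 to 5.37 FPKM. The endothelial pair *PECAM1* and *CDH5* summed to between 14.8 and 22.0 FPKM in Y6M and to between 3.69 and 6.95 in Y30M. These Sertoli and endothelial markers and *LHCGR*, the only Leydig marker paired of 6 listed, were lower in mature testis, as *STAT3* was. In tissue sections the study reported more interstitial cells in mature than in juvenile testis. It saw no germ cells past spermatogonia in juvenile tubules, and more germ cell layers, with spermatocytes and spermatids, in mature ones.

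*SYCP3*, a component of the synaptonemal complex of meiotic chromosomes, was called higher in Y30M, at 18.1 ± 12.3 FPKM against 3.05 ± 1.93. *HORMAD1*, which acts on the same chromosome axes, was not called, and its sum with *SYCP3* overlapped between the ages (8.47 to 28.0 FPKM in Y6M, 13.2 to 68.0 in Y30M). The macrophage marker *AIF1* ranged from 3.72 to 10.99 FPKM in Y6M and from 17.2 to 38.8 in Y30M. *SYCP3* and *AIF1* were higher in mature testis, as *BCL6* was. None of the peritubular, spermatogonial and spermatid markers could be paired, so those cells were not checked. None of the 8 paired markers was at 0 in any library. The part of cell makeup in the values of *STAT3* and *BCL6* was not tested.

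The named genes closest to *STAT3* were found by the Euclidean distance between log2(FPKM + 1) profiles over the 6 libraries, each centred on its own mean, among 2000 candidates with a gene name and a mean of at least 1 FPKM. *CDH5*, the adhesion molecule of endothelial cell junctions, was nearest at 0.229 log2 units. *ZKSCAN4*, a zinc finger protein, followed at 0.232. *EPM2AIP1* lay at 0.248, *PGM5* at 0.290 and *POLR1G*, a subunit of RNA polymerase I, at 0.311, where the median candidate was 2.12 away. All 5 were lower in every Y30M library than in any Y6M library, as were 21.9% of all genes tested. This follows from their choice by likeness to *STAT3* in the same libraries and is no separate result.

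For *BCL6* the nearest profiles were farther off. *TROAP*, a protein of the mitotic spindle, was first at 0.496 log2 units, and *CLIP1*, which binds the growing ends of microtubules, was next at 0.524. *CFAP126*, a protein of motile cilia, lay at 0.525, *MAMDC2* at 0.528 and *PLBD1* at 0.548, against a median of 2.46. Among the juvenile animals *BCL6* varied more than any of these 5 did on the log2(FPKM + 1) scale. That scale compresses the spread of low genes, and *MAMDC2* (0.790 ± 0.355 FPKM) and *PLBD1* (0.534 ± 0.267 FPKM) were low in Y6M. The distances describe 6 libraries that share their ages and depth, and they carry no test.

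**Figure D4:**
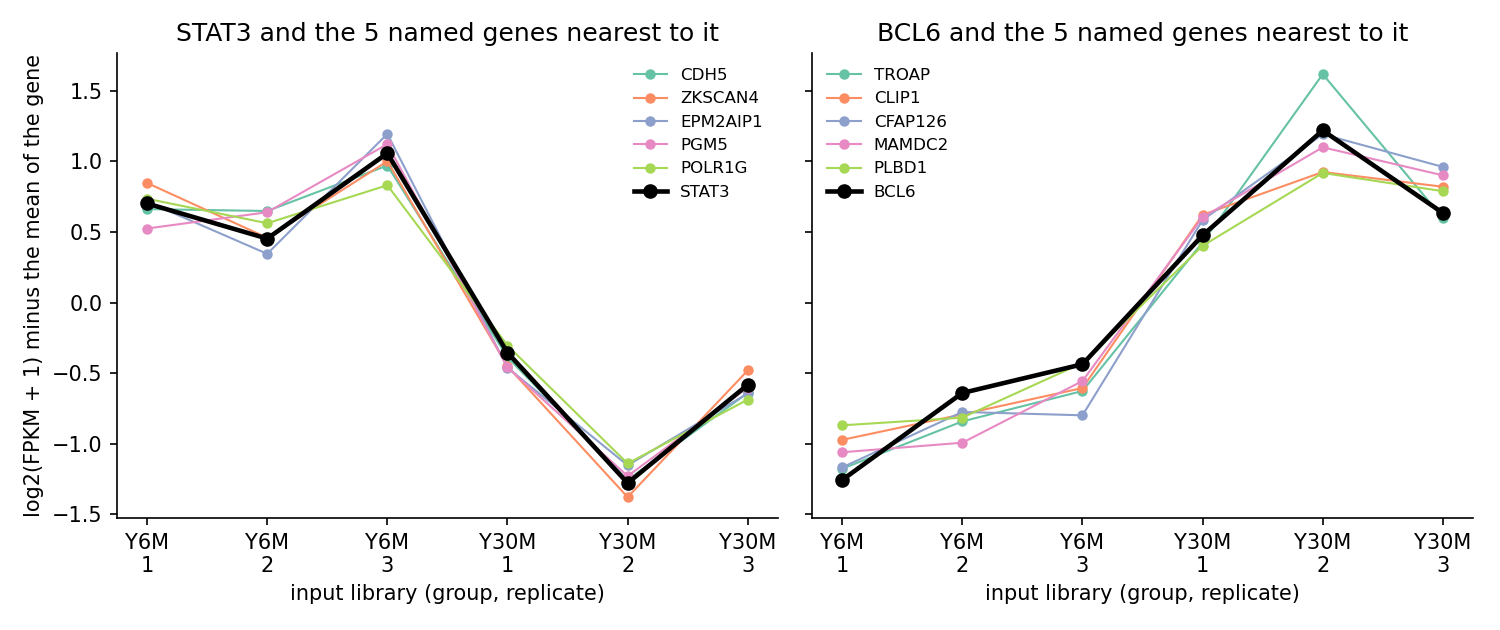
log2(FPKM + 1) minus the mean of the gene (y axis) in the 6 input libraries for *STAT3* (left, black) and *BCL6* (right, black), with the 5 named genes nearest to each in colour. The lines join libraries only to show each profile. The neighbours of *STAT3* lie within 0.229 to 0.311 log2 units of it and those of *BCL6* within 0.496 to 0.548.

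Other genes of both pathways were taken from lists of ligands, receptors, kinases, inhibitors, targets, cofactors and m6A enzymes. Of 125 listed genes, 15 could be paired with an ID, of which 3 were called higher in Y30M, 5 lower and 7 not called, where 27.6% of all genes tested were called higher and 19.0% lower. Their median log2 fold change was -0.13, beside 0.04 over all genes tested. No JAK or other STAT gene (0 of 10) and no inhibitor of STAT3 (0 of 18) had a paired ID. These genes too were mostly paired through lists chosen for change in these samples, so the counts describe them and are not independent evidence.

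On the side of STAT3, the ligand *IL6*, the founding cytokine of the family, was scarce. It was measured at 0.0516, 0 and 0.0313 FPKM in Y6M replicates 1, 2 and 3 and at 1.22, 0.176 and 1.17 FPKM in Y30M. The rise was called (log2 fold change 0.80, limma adjusted p = 0.0286) but not without Y30M replicate 1 (0.64) or replicate 3 (0.65). *IL10RB*, a receptor chain of the IL-10 family, fell from 19.8 ± 3.02 to 12.3 ± 2.84 FPKM (log2 fold change -0.65, limma adjusted p = 0.0719), a call that was lost without any 1 of 4 libraries (Y6M replicate 1 or 2, Y30M replicate 2 or 3) and with FPKM rescaled to a common sum (-0.49). They were the paired members of lists of 15 ligands and 15 receptors, and *IL10RB* is not a receptor of IL6.

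Of 15 listed STAT3 targets, 2 were paired, and *VEGFA*, the growth factor of blood vessels, was called lower. It stood at 19.9, 17.96 and 15.2 FPKM in Y6M and at 6.03, 3.78 and 3.63 FPKM in Y30M (a log2 change of -1.79 with a standard error of 0.28, adjusted p = 0.0018 from limma). *MCL1*, which protects cells from apoptosis, was not called, at 45.8 ± 0.534 and 41.1 ± 6.60 FPKM.

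Of 18 listed corepressors of BCL6, 2 were paired, and *HDAC9* was called higher. This class IIa histone deacetylase, one of those that bind the repressor, was measured at 0.355, 0.501 and 0.835 FPKM in Y6M and at 7.20, 16.4 and 14.8 FPKM in Y30M (a log2 rise of 3.08 with a standard error of 0.37, adjusted p = 5.74e-04 from limma). Its relative *HDAC4* was not called, at 4.97 ± 0.615 and 4.53 ± 1.22 FPKM. Of 12 listed regulators and relatives of *BCL6*, 5 were paired. None was called higher, 2 were called lower and 3 were not called, beside 27.6% and 19.0% of all genes tested called higher and lower. *FOXO3*, a forkhead factor that activates the *BCL6* gene, fell from 38.4 ± 1.31 to 14.7 ± 6.01 FPKM (log2 fold change -1.39, limma adjusted p = 0.00617). *CREBBP*, an acetyltransferase that inactivates the BCL6 protein, fell from 27.5 ± 2.62 to 13.2 ± 1.96 FPKM (log2 fold change -1.003, limma adjusted p = 0.00676).

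The other regulators were not called. *FOXO1* was at 17.1 ± 2.97 and 14.5 ± 5.23 FPKM. *FBXO11*, the ubiquitin ligase subunit that marks BCL6 for degradation, was at 21.7 ± 8.77 and 23.5 ± 7.72 FPKM. *IRF8*, which acts with BCL6 in germinal centres, was at 9.11 ± 2.99 and 9.56 ± 2.24 FPKM. For each of the 3 the libraries of the groups overlapped.

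Of 10 genes listed as targets of repression by BCL6, 3 were paired, and these 3 did not move as one. The chemokine receptor *CXCR4* rose from 6.29, 8.21 and 10.2 FPKM in Y6M to 42.4, 29.2 and 23.2 FPKM in Y30M (a log2 rise of 1.797 with a standard error of 0.30, adjusted p = 0.00239 from limma). *CDKN1B*, the p27 inhibitor of cyclin-dependent kinases, fell from 31.7 ± 11.99 to 13.4 ± 6.52 FPKM (log2 fold change -1.24, limma adjusted p = 0.0508). That call was lost without any 1 of 4 libraries (Y6M replicate 2 or 3, Y30M replicate 1 or 2). *ATR*, a kinase of the DNA damage response, was at 4.78 ± 2.40 and 4.79 ± 2.56 FPKM. Of the m6A enzymes only the reader *YTHDF2* was paired. It was at 17.2, 18.8 and 21.4 FPKM in Y6M and at 29.1, 23.2 and 28.3 FPKM in Y30M, which did not overlap, but its log2 fold change of 0.47 (limma adjusted p = 0.102) was not called.

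Each of the pair carried 1 m6A peak in the list compared between the ages, as did 52.6% of the 8809 genes with any peak. The peaks were called by the authors over the pooled IP and input libraries, so a peak has 1 value and no replicate error. Positions follow the yak genome build LU_Bosgru_v3.0, counted from 1.

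The peak of *STAT3* lay on chromosome 19 from 23617050 to 23617579, on the plus strand. It spanned 530 bp but was made of 3 exon blocks of 17, 95 and 39 bp, parted by gaps of 196 and 183 bp, so 151 bp of it were exonic. Of all 16318 peaks, 13.6% had 3 blocks. Its IP signal was 1.36 times the input, which was higher than in 4.69% of peaks, although its false discovery rate of 6.31e-15 was smaller than that of 91.9% of peaks. Its enrichment was therefore among the smaller ones in size and among the stronger ones by false discovery rate. The nearest other peaks were 84009 and 113769 bp away.

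The peak of *BCL6* lay on chromosome 1 from 86544235 to 86544629, on the plus strand. All 395 bp of it fell in 1 exon block, as in 47.6% of peaks. Its IP signal was 1.92 times the input, higher than in 32.2% of peaks and below the median of 2.31, with a false discovery rate of 1.38e-09 that was smaller than that of 74.8% of peaks. The next peaks lay 2322904 bp away on one side and 343380 bp on the other. Which part of the transcript each peak covers (coding sequence or untranslated region) was not analysed here.

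A separate list for each age gives the adenosines inside that group's peaks, each with a binary, a spectrum and a combined score between 0 and 1. An adenosine is predicted as an m6A site from a combined score of 0.528. The list of Y6M holds 2035099 scored adenosines, of which 21.5% were predicted, and that of Y30M 187736, of which 19.7% were. The Y30M list used here covers chromosomes 1 and 2 only, so *BCL6* could be placed in both lists and *STAT3* in that of Y6M.

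In *STAT3*, 13 adenosines were scored in the Y6M list, in a peak with the same ends as the compared one, and 4 of them (30.8%) were predicted as sites. The highest combined score was 0.617, at 23617344 in the middle exon block. The other predicted positions were 23617371 at 0.566, 23617427 at 0.565 and 23617324 at 0.529, just past the threshold. All 4 lay within 112.5 bp of the centre of the peak, on its side of higher coordinates. Of the 13 scored adenosines, 5 lay in the exon blocks, with 2 predicted, and 8 lay in the gaps between them, also with 2 predicted.

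In *BCL6*, the Y6M peak ran from 86544186 to 86544678 (493 bp) and the Y30M peak from 86544284 to 86544629 (346 bp). The Y30M peak lay wholly inside that of Y6M and covered 70.2% of it, starting 98 bp later and ending 49 bp earlier. Of the 991 overlapping pairs of peaks on these chromosomes, 33.9% had the Y30M peak inside a longer Y6M peak and 33.9% the reverse, so a shorter peak in one age was ordinary in both directions.

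Both lists scored the same 5 adenosines in *BCL6* and predicted the same 3 as sites. The position 86544335 had a combined score of 0.598 in Y6M and 0.623 in Y30M. At 86544491 the score was 0.568 in both, and at 86544533 it was 0.596 and 0.607. The positions 86544592 (0.496 and 0.484) and 86544626 (0.502 and 0.430) stayed below the threshold. The predicted sites were those nearer the middle of the peak, and the last position, only 3 bases from the upper end of the Y30M peak, differed most between the lists.

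**Figure D5:**
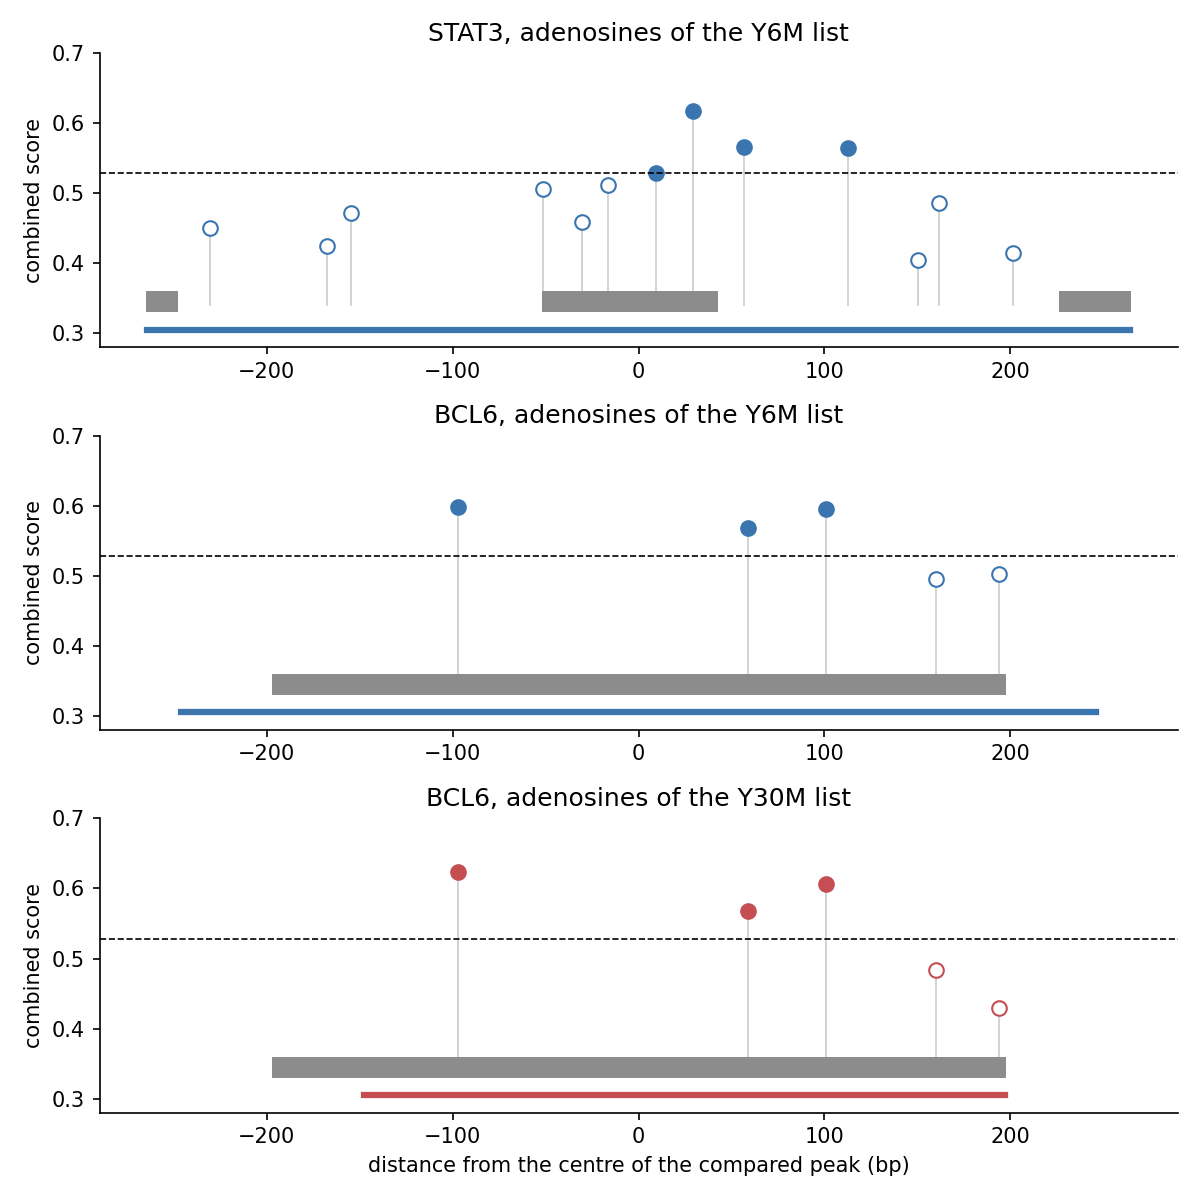
Combined score (y axis) of each scored adenosine against its distance in bp from the centre of the compared peak (x axis), for *STAT3* in the Y6M list and *BCL6* in both lists. Filled circles are predicted sites, the dashed line is the threshold of 0.528, grey boxes are the exon blocks of the compared peak and the coloured line is the peak of that list. The 5 positions of *BCL6* are the same in both lists, and 3 of them lie above the line in each.

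The score is a prediction for an adenosine, not a measurement in an animal. Across both chromosomes 115281 adenosines were scored in both lists, and 97.6% had the same combined score in each. All 15193 that lay in peaks with identical ends scored the same, and so did all 94701 in peaks with other ends that were 200 bp or more from the nearest end. In peaks with other ends the score was the same for 24.9% of 1521 adenosines within 50 bp of the nearest end, for 23.7% of 1522 at 50 to 100 bp and for 80.4% of 2344 at 100 to 200 bp. In *BCL6* the ends of the peak differed by 98 and 49 bp between the lists. The scores of its 5 adenosines are therefore read neither as a likeness nor as a difference between the ages.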

How the data were processed

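Both genes and all gene lists were chosen with earlier results of these data known. For the 6 yaks, 12 libraries (input and IP) were sequenced. By the study's methods the authors trimmed reads with Trimmomatic, removed ribosomal RNA with SortMeRNA and aligned with HISAT2 to LU_Bosgru_v3.0. deepTools is also named in the submitters' processing notes. The deposited FPKM values cover the input libraries. The program and annotation release behind them are not given in the sources used here. The authors called peaks with MeTDiff, and the deposited fold enrichment is the ratio of IP to input over pooled libraries. Columns with the authors' own fold change and p-values between the ages were not used. The tool behind the deposited scores of adenosines is not given in the sources used here. Their positions were taken as counted from 0 and printed from 1.

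limma 3.58.1 (R 4.3.3, intensity trend) was fitted to log2(FPKM + 1) of genes above 0 in at least 1 library (19477 genes), with Benjamini-Hochberg adjustment. The fit was also run on simulated data with far fewer changed genes and no effects shared by the genes of a library. That run is no check of the fit under the conditions of these data. A call asked for p no larger than 0.05 and a change of 1.5-fold or more, after the study's thresholds. A fold change on this scale understates that of low genes. Gene names came from the study's supplementary tables, which pair 2147 of 20953 IDs. RefSeq matched 0 IDs, and no genome or sequence table was used, so no sequence is printed. All paired list genes and the 5 nearest profiles were named. Same-numbered libraries correlated in their deviations from the group means (r = 0.209, 0.283 and 0.604 for replicates 1, 2 and 3, across genes). Replicates 1 and 2 correlated as much across numbers (0.322 and 0.253), so only replicate 3 stood out by its number. Numbers were treated as pairs in an alternative fit. That the yaks were separate animals comes from the study's methods. Whether a number marks a shared day or batch is not stated. Alternatives changed the pseudocount, filter, scaling, thresholds, block and libraries.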

Additional observations from a re-analysis of the deposited data

How the results depend on the processing

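*STAT3* and *BCL6* kept their direction and call under all 15 alternatives each, 1 of which (limma without the intensity trend) was chosen after seeing the data. Their log2 fold changes ranged from -1.67 to -1.21 and from 1.32 to 1.73 when 1 library was left out, and from -1.67 to -1.37 and from 1.45 to 1.78 under the other settings. With the replicate number as a block the adjusted p (limma) was 0.00456 for *STAT3* and 0.0035 for *BCL6*, and the block changed no call. The *BCL6* to *STAT3* difference stayed between 2.54 and 3.38. With the pairing its exact p was 0.25, the smallest that 3 pairs allow. Rescaling FPKM to a common sum moved the median log2 fold change of all genes by 0.08 and the share of calls that were higher in Y30M from 59.2% to 65.0%, and median-of-ratios factors moved them by -0.02 and to 54.4%. At a fold enrichment of at least 2, 0 peaks of the pair were left. At a score of at least 0.6, 0 adenosines of *BCL6* were predicted in Y6M and 2 in Y30M. Those 2 scored 0.598 and 0.596 in Y6M against 0.623 and 0.607 in Y30M, in peaks whose ends differed between the lists. These counts are not read as a change with age. Genes that were not called changed sign. With the rescaling *MCL1* was at 0.0158, *HDAC4* at 0.0233 and *ATR* at 0.137, while *YTHDF2* was called (0.65) and *IL10RB* was not (-0.49). With median-of-ratios factors *IRF8* was at -0.0175. Without 1 library in turn *HDAC4* ranged from -0.276 to 0.0502, *FBXO11* from -0.0946 to 0.418, *FOXO1* from -0.497 to 0.0190, *IRF8* from -0.184 to 0.248, *ATR* from -0.346 to 0.307 and *HORMAD1* from -0.533 to 0.673. The cause was not tested. With adjusted p, *IL10RB* and *CDKN1B* lost their calls. FPKM gave only the relative depth of the libraries and read totals were not used, so no counting interval is given. The 3 animals per group limit every comparison.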
